A study of Solanum tuberosum with 9 samples.

Results

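The 95 gene models described here had levels in control tubers at day 40 of storage that lay apart from control tubers at day 0 and from day 40 tubers that had been exposed to rosemary essential oil (REO) vapour. They came from 34239 gene models in all, of which 32917 carried a reference-style identifier (Soltu.DM) and 13581 of those had a mean over the 9 libraries of at least 5 CPM (a count scaled to the total of its library). They were selected on these CPM values: in each of the 95, all 3 control libraries of day 40 lay at least 1.2-fold below, or all 3 at least 1.2-fold above, every one of the 6 other libraries. In 41 models the control libraries of day 40 were low and in 54 they were high. Models were left out when REO stood apart on its own: the lowest REO library at least 1.5 times the highest control library, or the lowest control library at least 1.25 times the highest REO library. That step removed 3 models of the low kind, in which the lowest REO library was 2.46-, 3.23- and 18.5-fold above the highest control library, and 0 of the high kind.

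Stored potato tubers keep changing after harvest: dormancy ends, reserves laid down as starch and storage protein are drawn on, and the buds begin to sprout. Volatile plant oils, rosemary oil among them, are studied as sprout suppressants because their monoterpenes reach the buds as vapour and damage or delay them. A transcript that moves during ordinary storage, and under the oil moves less or in the other direction, is a candidate for a storage change that the oil holds back. Such transcripts are described here, and not all of them stayed near their starting level under the oil.

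Tubers of the cultivar Keshan were bought mature, split into a control and a fumigated set when storage began, and kept sealed under shared conditions. RNA was sequenced from 3 libraries each of day 0 controls, day 40 controls and day 40 REO tubers, and there was no fumigated group at day 0. The labels name no transgene, mutant or second agent. They name the tissue as tuber without saying whether buds or skin were included. The 3 libraries of a group are called biological replicates, but the labels do not state how many tubers stood behind a library or whether a group shared 1 container, so treatment and container cannot be told apart, and p-values speak of the spread among these libraries alone.

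The libraries held 29330673 to 36901701 counts, and the lowest count of any of the 95 models in any library was 7. Control day 40 replicate 2 stood apart from its group: across the 13581 models, correlations of log2 CPM between replicates went down to 0.892 in that group, against at least 0.940 at day 0 and 0.962 with REO. Day 0 replicate 3 stood apart in another way, since long gene models were low in it, as described with the lengths below. Values without these libraries are given beside the counts, lengths and named models that they moved most. The files and the reference table provided do not pair these identifiers with gene names (0 matched), so no function is given for any model, no sequence is shown, the tuber label could not be checked against markers, and models are called by identifier and by the chromosome number in it.

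The models were chosen by the same 9 CPM values that are described, so the separation of control day 40 is a description and not a finding. All 41 low models and all 54 high models passed the low-count filter and were in the fit across 22638 models. Among the 13581 eligible models, 44 had control day 40 low by the 1.2-fold margin (0.324%) and 54 had it high (0.398%), before the step that removed 3. These 98 models made this the least common of the 3 arrangements. Day 0 lay apart in 520 models, below the other 6 libraries in 255 (1.88%) and above them in 265 (1.95%). REO lay apart in 248 models, above the rest in 191 (1.41%) and below in 57 (0.420%).

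The scarcity of the pattern moved with a single library. Without control day 40 replicate 2, the margin was met by 519 models with control day 40 apart, against 98 with it. By the same omission day 0 apart went to 444 and 486 models, and REO apart to 272 and 84. Leaving out 1 library of the group that stands apart relaxes the margin in any case: it gave 761 to 918 models for day 0, 276 to 410 for REO, and 193 and 230 for control day 40 without its replicates 1 and 3. With the removal step applied, the models chosen without control day 40 replicate 2 were 231 low and 281 high, among them all 41 low and 52 of the 54 high ones. In 112 of the 190 added low models, replicate 2 lay inside the range of the other 6 libraries, and in 44 it lay above all of them. In the 229 added high models these numbers were 149 inside and 22 below.

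**Figure D1:**
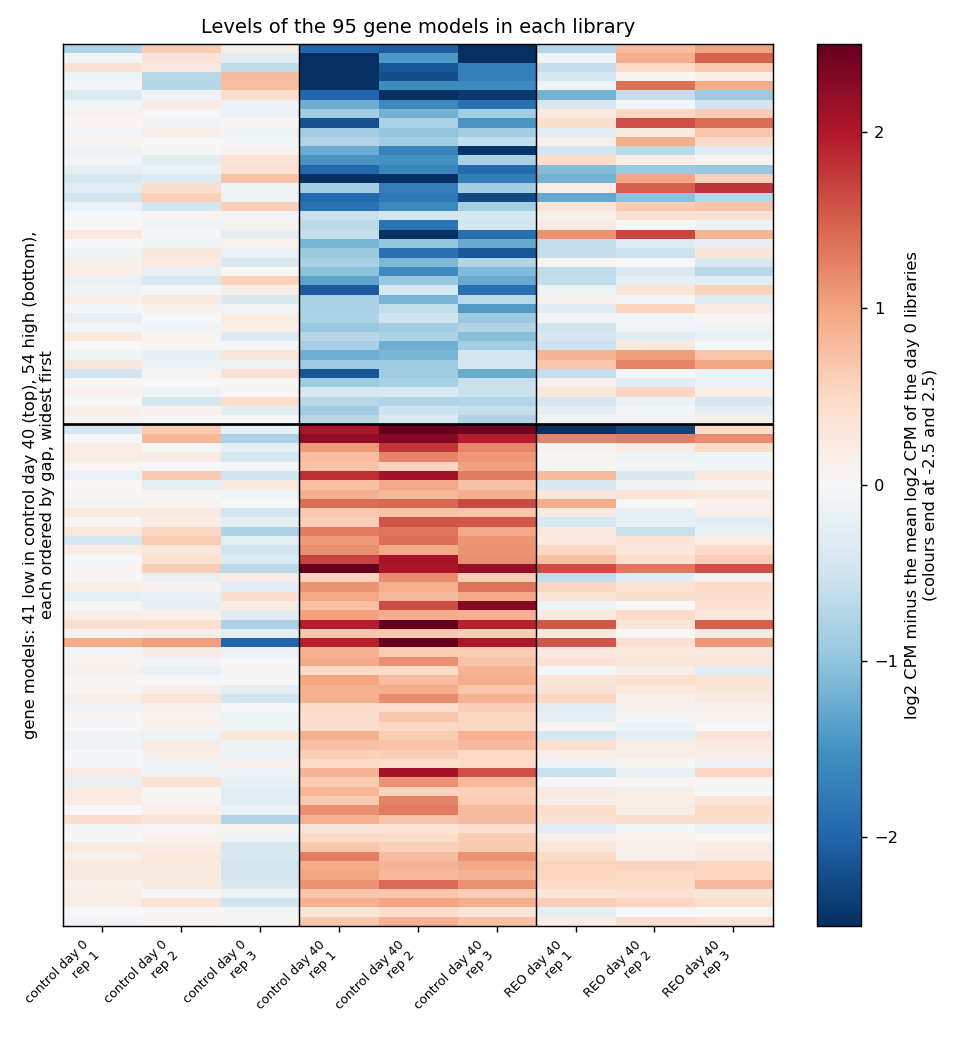
Each row is 1 of the 95 gene models and each column 1 library, and the colour gives log2 CPM minus the mean log2 CPM of the day 0 libraries (colours end at -2.5 and 2.5). The 41 models above the black line are blue and the 54 below it red in the 3 control libraries of day 40, by the way they were chosen, while the REO columns vary from row to row.

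The balance of low and high models depended on how libraries were scaled. By CPM, the median model of all 13581 stood 0.11 higher on the log2 scale in control day 40 than at day 0, and REO stood 0.07 lower than control day 40. With TMM scaling, which centres on the bulk of models, the same rule chose 76 low and 29 high models in place of 41 and 54. All 41 low models stayed on their side of the margin and 29 of the 54 high models did. Under TMM, RLE and the FPKM values alike, 34 of the 41 low and 25 of the 54 high models were chosen again.

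The distance between control day 40 and day 0 was somewhat larger in the low than in the high models. Mean CPM at day 0 was a median of 2.19 times that of control day 40 over the 41 low models, with quartiles of 1.83 and 2.93 and a range of 1.38 to 7.37. In the 54 high models, control day 40 was a median of 1.83 times day 0, with quartiles of 1.61 and 2.17 and a range of 1.28 to 10.4. A difference of at least 4-fold between these means was seen in 8 low and 4 high models. The gap, the lowest library of the higher side over the highest of the lower side, had a median of 1.29 in the low and 1.27 in the high models. It reached 2-fold in 4 low models and 1 high model, against 55 models with day 0 above the rest, 14 with day 0 below, 54 with REO above and 2 with REO below.

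Near the margin, membership turned on small amounts. The 2 low models just inside had gaps of 1.201 and 1.204 and the 2 just outside 1.199 and 1.194. For the high models these were 1.201 and 1.208 inside, and 1.199 and 1.196 outside. Without any margin, 207 eligible models had control day 40 below all 6 other libraries and 637 had it above, so far more high than low models fell short of 1.2-fold (583 against 163). These counts are by CPM, in which the median eligible model was itself higher in control day 40, and the balance depended on the scaling as given above.

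The widest low gap belonged to Soltu.DM.09G000420 on chromosome 9. Its day 0 libraries held 25.8, 66.6 and 48.0 CPM, its control libraries of day 40 held 11.00, 10.5 and 7.68 CPM, and its REO libraries held 26.5, 75.4 and 87.2 CPM. REO and day 0 overlapped, REO replicate 1 and day 0 replicate 1 were the low libraries of their groups, and control day 40 lay far under both groups. The means were 46.8 ± 20.5 CPM (SD, n = 3) at day 0, 9.72 ± 1.79 CPM at control day 40 and 63.0 ± 32.2 CPM under REO, so REO stood 6.48-fold above control tubers of the same age.

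Soltu.DM.01G051480 on chromosome 1 was a low-abundance model with the next widest gap. It held 5.71, 7.49 and 4.95 CPM before storage, 0.542, 2.20 and 0.704 CPM in the control day 40 libraries, and 5.56, 11.2 and 16.5 CPM under REO. The highest control library of day 40 was replicate 2, and REO replicates 2 and 3 exceeded every day 0 library. REO was 9.65-fold above control day 40, with 11.1 ± 5.46 against 1.15 ± 0.912 CPM (SD, n = 3).

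Among the high models the widest gap was in Soltu.DM.09G008210 on chromosome 9, and it rested on uneven values. It held 1.05, 2.17 and 1.21 CPM before storage, 5.69, 32.7 and 7.56 CPM in the control day 40 libraries, and 0.239, 0.281 and 1.95 CPM under REO. Control day 40 replicate 2 was more than 4 times its fellow replicates, so the group mean of 15.3 ± 15.1 CPM (SD, n = 3) describes no library well. REO replicates 1 and 2 were under every day 0 library and REO replicate 3 was within the day 0 range. The log2 fold change in storage was 3.22 with control day 40 replicate 2 and 2.08 without it, and that of REO against control day 40 was -4.13 and -2.98.

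Soltu.DM.06G017150 on chromosome 6 had even replicates in the day 40 groups and an intermediate level under REO. Its day 0 replicates were less even, at 3.06 ± 1.66 CPM (SD, n = 3). It held 2.71, 4.86 and 1.60 CPM before storage, 12.8, 13.4 and 10.8 CPM in the control day 40 libraries, and 6.55, 6.72 and 6.27 CPM under REO. The 3 groups did not overlap, and REO stood between the other groups at 6.51 ± 0.223 CPM (SD, n = 3), 2.13-fold above day 0 and 1.89-fold under control day 40.

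**Figure D2:**
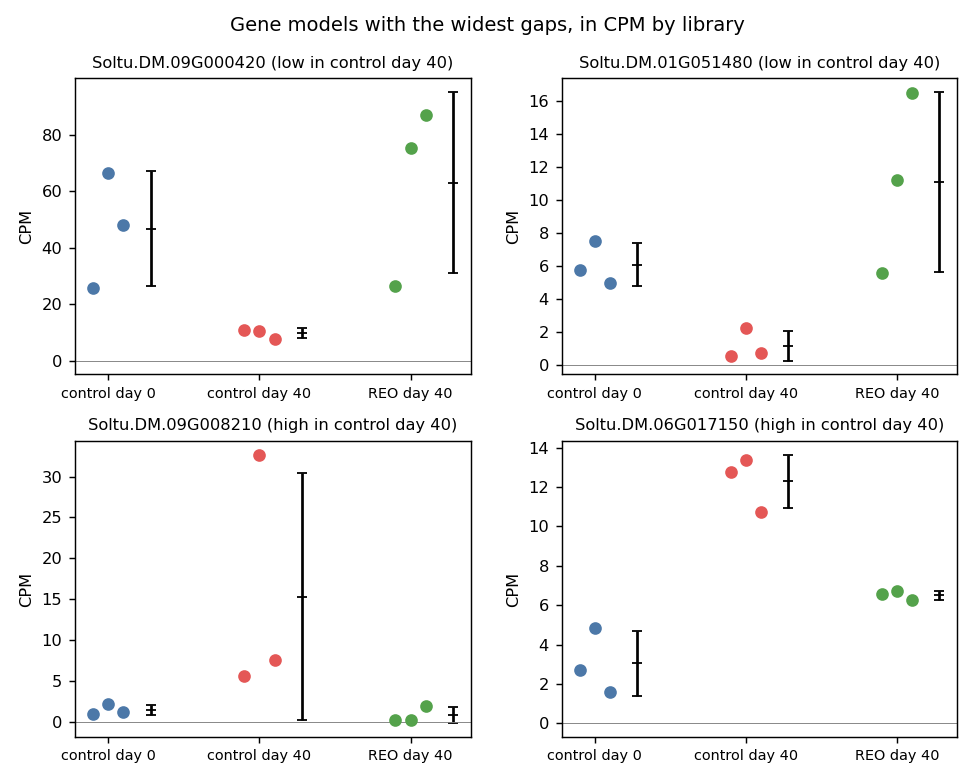
CPM of the 4 gene models with the widest gaps, with 1 point per library (replicates 1, 2 and 3 from left to right) and, beside each group, its mean with a bar of 1 SD (n = 3). Control day 40 lies under all other points in the upper panels and above them in the lower panels, and in Soltu.DM.09G008210 its replicate 2 is far above replicates 1 and 3.

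A count test across all 22638 models (edgeR, quasi-likelihood, with adjusted p under 0.05 by Benjamini-Hochberg) was set beside the rule. In storage without REO it called 13 of the 41 low models lower at day 40 and 11 of the 54 high models higher, where it called 0.570% of all models lower and 0.274% higher. For REO against control at day 40 it called 9 of the 41 low models higher and 2 of the 54 high models lower, where the shares over all models were 0.424% higher and 0.0353% lower. The rule used both contrasts, so nothing is read from these counts. They depended on single libraries, being 0 to 46 for storage and 0 to 10 for REO when 1 of the 9 libraries was left out. The storage count was 46 without control day 40 replicate 2 and 0 without day 0 replicate 3 or REO replicate 2, and the REO count was 0 without REO replicate 2.

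Over all models, 3 were called in both contrasts, and 2 of these fell in storage and rose with REO. Both are among the low models and are named here because their number is small, after their values were seen. Soltu.DM.03G025880 on chromosome 3 held 10.4, 9.54 and 5.17 CPM before storage, 1.25, 1.84 and 2.43 CPM in the control day 40 libraries, and 5.35, 11.4 and 12.5 CPM under REO. Day 0 and REO overlapped, and every control library of day 40 was under the lowest of them. Soltu.DM.03G019160, also on chromosome 3, was more abundant and more even, with 300.2, 285.8 and 251.0 CPM before storage, 151.9, 123.1 and 153.0 CPM in the control day 40 libraries, and 329.0, 399.5 and 433.9 CPM under REO. Here all REO libraries exceeded all day 0 libraries, by 1.39-fold between the means.

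The place of REO relative to day 0 was less bound by the rule than the other contrasts, but not free of it: REO had to lie on the day 0 side of control day 40, and models with REO far above or below all controls were removed. In 27 of the 41 low models the REO and day 0 libraries overlapped, in 8 every REO library was above every day 0 library, and in 6 every REO library was below, between day 0 and control day 40. In the 54 high models 33 overlapped, 19 had every REO library above day 0 and so between it and control day 40, and 2 had every REO library below day 0. These counts are given without a share over all eligible models, so they are a description and nothing is read from them. For REO against day 0 the count test called 0 of the 41 low models and 1 of the 54 high models, where it called 1.39% of all models higher and 1.22% lower. At an unadjusted p under 0.05 the edgeR test had 22 of the 95, given without the number over all models, so nothing is read from it. DESeq2 called 7, and its number over all models is given with the alternatives below. A p that misses the threshold does not show that REO and day 0 were alike in the remaining 94 models.

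The position of REO relative to the control groups, called here the amount held back, was expressed on the log2(CPM + 0.5) scale. It is the distance of REO from control day 40, in percent of the distance of day 0 from control day 40. The name states no cause. A value of 100 is the day 0 level, and 0 would be the level of control tubers of the same age. The median was 96.4% in the low models, with quartiles of 74.5 and 137.7 and a range of 46.8 to 229.8. In the high models the median was 74.6%, with quartiles of 60.1 and 103.5 and a range of 34.0 to 146.3. Of the low models, 20 were at or above 100% and 2 under 50%, and of the high models 16 and 6. By this measure the low models lay on both sides of the day 0 level, and most of the high models stopped short of it. The rule placed every REO library on the day 0 side of control day 40, so values of 0 or under could not occur. These values are therefore a description of the chosen models and not a finding. The median in the high models depended on day 0 replicate 3, in which these models were low. Without that library it was 90.0%, and the median log2 difference of REO from day 0 went from 0.24 to 0.08.

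**Figure D3:**
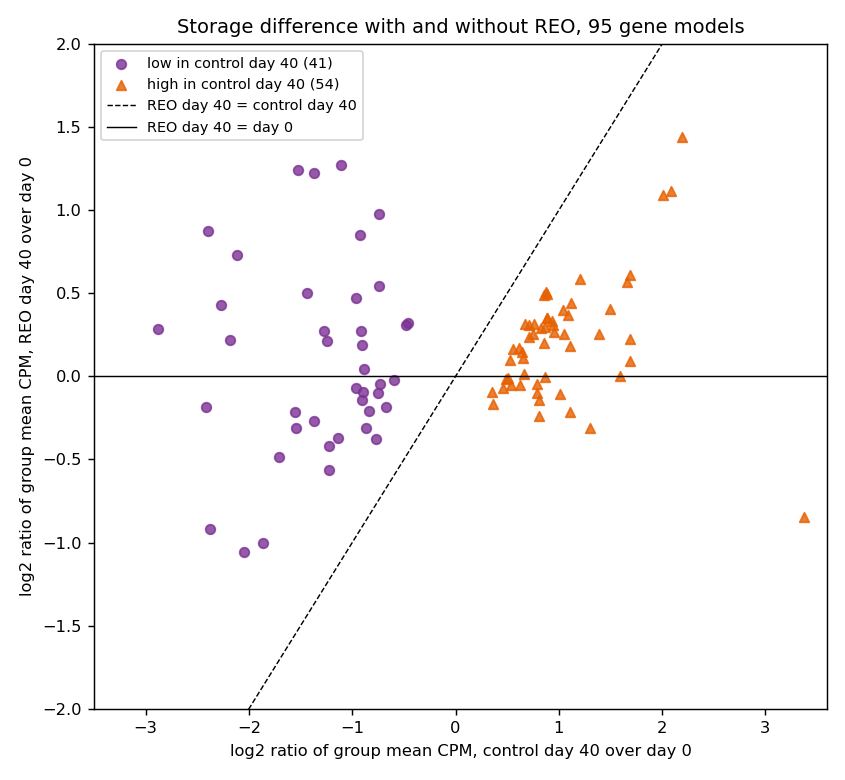
Each point is 1 of the 95 gene models, placed by the log2 ratio of mean CPM of control day 40 over day 0 (horizontal) and of REO day 40 over day 0 (vertical). The dashed line marks REO equal to control day 40 and the solid line REO equal to day 0. The low models scatter on both sides of the solid line, from -1.06 to 1.27, and the high models lie mostly between the lines. Day 0 enters both axes.

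The extremes of this comparison were in models of both kinds. Soltu.DM.03G037700 on chromosome 3 was the 1 model called for REO against day 0. It held 3.05, 4.48 and 1.85 CPM before storage, 17.5, 12.2 and 13.2 CPM in the control day 40 libraries, and 9.14, 7.36 and 9.00 CPM under REO. REO stood between groups that it did not overlap, 2.72-fold above day 0, with a log2 fold change of 1.41 ± 0.28 (SE). Its adjusted p of 0.0361 (edgeR) became 0.000226 to 0.127 over 15 alternatives (edgeR and DESeq2), and 6 of them lost the call.

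Soltu.DM.07G022440 on chromosome 7, a low model, was the next highest relative to day 0. It held 7.31, 11.8 and 8.30 CPM before storage, 4.96, 2.70 and 5.03 CPM in the control day 40 libraries, and 10.1, 25.2 and 31.0 CPM under REO. REO replicates 2 and 3 were more than 2-fold above the highest day 0 library while replicate 1 was within the day 0 range, and the mean was 2.42-fold that of day 0. This difference did not pass (edgeR adjusted p = 0.159).

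At the other end, Soltu.DM.09G024200 on chromosome 9 and Soltu.DM.04G027270 on chromosome 4 had the lowest REO levels relative to day 0. The model on chromosome 9 held 23.5, 48.3 and 29.3 CPM before storage, 8.40, 9.29 and 6.76 CPM in the control day 40 libraries, and 13.2, 15.9 and 19.5 CPM under REO. Its REO mean was 0.481 of the day 0 mean, and the 3 groups did not overlap. Soltu.DM.04G027270 was the most abundant of the 95 models, with 4723, 4906 and 7086 CPM before storage, 1409, 1761 and 1426 CPM in the control day 40 libraries, and 2568, 2928 and 2837 CPM under REO. Its groups did not overlap either. REO stood at 46.8% of the distance from control day 40 to day 0, the lowest value among the low models. Neither difference between REO and day 0 passed (edgeR adjusted p = 0.0548 and 0.0605). Over 15 alternatives (edgeR and DESeq2), adjusted p went from 0.00181 to 0.209 for Soltu.DM.09G024200, and 12 of them left it uncalled. For Soltu.DM.04G027270 it went from 0.000129 to 0.219, and 13 left it uncalled. The others called the difference.

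A few abundant models carried most of the summed level. The 41 low models summed to 11703 ± 1919 CPM (SD, n = 3) at day 0, 4264 ± 440 CPM at control day 40 and 9702 ± 1305 CPM under REO, which is 1.17%, 0.426% and 0.970% of the library. The 3 most abundant of them held 69.1% of the sum. Beside the model on chromosome 4, these were 1 on chromosome 2 with group means of 1894, 1026 and 1955 CPM in the same order, and 1 on chromosome 12 with 1272, 172.6 and 1547 CPM. The model on chromosome 12 was uneven between replicates, with 59.5, 100.0 and 358.3 CPM in the control libraries of day 40 and 521.3, 2347 and 1773 CPM with REO. Without these 3, the low models summed to 2965 ± 120, 1533 ± 83.6 and 3423 ± 318 CPM, so REO then stood above day 0 and not below it.

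The 54 high models were a smaller part of the library, with sums of 1703 ± 524 CPM before storage, 3917 ± 450 CPM in the control day 40 libraries, and 2087 ± 346 CPM under REO. The most abundant, on chromosome 2, held 628.2, 689.7 and 84.6 CPM before storage, 1279, 1897 and 1343 CPM in the control day 40 libraries, and 993.0, 431.8 and 713.0 CPM under REO. Its day 0 replicate 3 was far under the rest, and its length scale of 13086 bases was the greatest of the 95. Without the 3 most abundant, the sums were 939.6 ± 106, 1844 ± 125 and 1109 ± 31.2 CPM. In bulk tissue a lower level can mean fewer cells of a type or less RNA per cell, and these cannot be told apart.

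On the per-length scale of the second deposited table (FPKM), levels can be compared between models. The median FPKM of the low models was 23.5 at day 0, 7.73 in control tubers at day 40 and 21.5 with REO, and that of the high models 6.44, 12.1 and 7.87. Among the low models 26.8% had a 9-library mean of at least 100 CPM, against 7.41% of the high models and 13.6% of all eligible models. Under 10 CPM these shares were 29.3%, 22.2% and 20.6%.

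The place of the chosen models differed between the REO replicates. In 29 of the 41 low models REO replicate 1 was the lowest of the 3 REO libraries, and the median position of the low models between control day 40 and day 0 was 80.3% in it, against 105.5% and 106.8% in replicates 2 and 3. In the high models the positions were 66.3%, 83.0% and 69.8%. REO replicate 1 was also the library nearest to control day 40 in 15 low and 20 high models. By the rule without REO replicate 1, 82 low models were chosen, among them 38 of the 41.

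Within the chosen models, control day 40 replicate 2 was the library of its group nearest to the other groups in 13 of the 41 low models, against 10 for replicate 1 and 18 for replicate 3. In the 54 high models it was nearest in 19, against 16 and 19, and farthest in 29. The rule kept a model only if replicate 2 also lay past the margin, so these counts do not show how close that library was to the other groups over all models.

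The spread within groups differed between the low and high models. The median coefficient of variation of CPM in control day 40 was 19.3% in the low and 9.82% in the high models, against 17.1% over the eligible models. With REO it was 15.9%, 8.76% and 11.2%, and at day 0 it was 17.2%, 15.9% and 17.4%. The rule acted on the same CPM values and required every library to clear the margin, which bears on the spread. These values are therefore a description and not a finding.

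**Figure D4:**
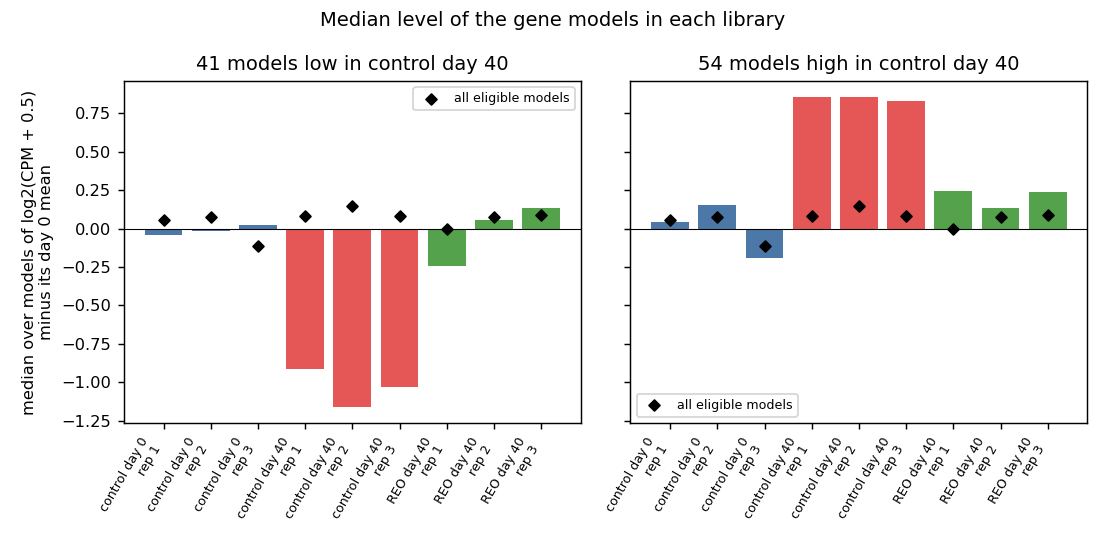
Bars give, for each library, the median over the gene models of log2(CPM + 0.5) minus its day 0 mean, for the 41 low (left) and 54 high (right) models, and diamonds give the same for all 13581 eligible models. Control day 40 bars lie between -1.16 and -0.91 on the left and between 0.83 and 0.86 on the right. REO replicate 1 is at -0.25 on the left while replicates 2 and 3 are at 0.05 and 0.14, and day 0 replicate 3 is at -0.19 on the right.

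Length was a property that the rule did not use, and the low and high models differed in it. The length scale of a model, taken from the ratio of its count to its FPKM value, had a median of 1256 bases in the low models, 2263 bases in the high models and 1872 bases over all eligible models. Of the 41 low models 29 were under 1500 bases, and of the 54 high models 11 were, where 33.9% of eligible models are. Over 4 equal length classes of the eligible models, the low models fell 21, 12, 7 and 1 from shortest to longest, and the high models 7, 8, 25 and 14. The 2 larger sets with day 0 apart had the same order, with medians of 1414 bases where day 0 was above the rest and 2177 bases where it was below. Without day 0 replicate 3 these medians were 1686 and 1852 bases, much closer to each other, and without control day 40 replicate 2 they were 1421 and 2106 bases. Models with REO apart had medians of 1616 bases above and 1592 bases below, which became 1561 and 2062 bases without day 0 replicate 3.

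Length also moved with libraries over all eligible models. In control day 40 against day 0 the median log2 difference was -0.06 in the shortest class and 0.28 in the longest, and for REO against day 0 it was -0.05 and 0.17. Day 0 replicate 3 stood apart here, with a median of 0.15 in the shortest class and -0.40 in the longest relative to the day 0 mean. Without it, control day 40 minus day 0 was -0.02 in the shortest class and 0.06 in the longest, and REO minus day 0 was -0.02 and -0.04, so the higher level of long models under REO was no longer seen. With that library left out of the rule, the low models were again shorter than the high ones, at 1327 bases in 56 low models and 2206 bases in 63 high models. Over the other 8 omissions the low medians were 1247 to 1505 bases and the high medians 2059 to 2376 bases. The part of read coverage or RNA quality in this order was not tested.

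**Figure D5:**
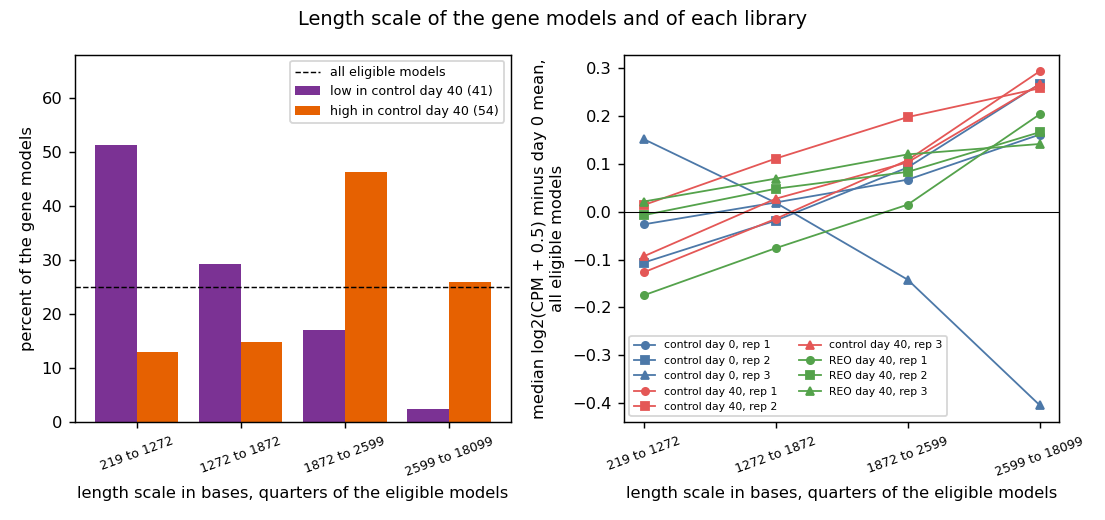
Left, percent of the 41 low and the 54 high gene models in each of 4 equal length classes of the eligible models, with a dashed line at the share of all eligible models. Right, the median log2(CPM + 0.5) minus its day 0 mean of all eligible models in each class, 1 line per library. Low models are mostly in the shorter classes and high models in the longer ones, and day 0 replicate 3 is the library that goes down with length, to -0.40.

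The 95 models were spread over all 12 chromosomes, with 0 on unplaced sequence. Chromosome 3 had the most, 14 (5 low and 9 high) of 1434 eligible models, and chromosome 5 the fewest, 4 of 905. As a share of eligible models chromosome 8 led with 1.03% (5 low, 5 high) and chromosome 1 had the least with 0.402% (2 low, 5 high). Pairs that stood within 5 eligible models of each other in identifier order numbered 5, of which 2 were low with low, 1 high with high and 2 mixed. They held 10.5% of the 95 models, against 41.9% of the 520 models with day 0 apart and 35.1% of the 248 with REO apart. Larger sets give more pairs, so these shares are not directly comparable. The low pair on chromosome 7 held Soltu.DM.07G022440, the model highest over day 0 among the low ones, beside a model in which every REO library was below day 0. This pair did not take the same place relative to day 0.

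Models that the submitters added to the annotation (1322, with 449 of at least 5 mean CPM) were outside the rule. Under the same margins 2 of them had control day 40 low and 0 had it high. The 2 held 1.39 to 2.87 CPM and 4.03 to 4.66 CPM in the control libraries of day 40, under all of their 6 other libraries.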

How the data were processed

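The authors deposited whole-number counts per gene model for 9 libraries (per the labels, 3 each of control day 0, control day 40 and REO day 40) and a second table of the same models, read here as FPKM from its values: in 90.0% of 13477 models with at least 100 counts in every library, counts divided by the values gave 1 length per model, after scaling by library, to within 2%. Per the submitters' processing notes, HISAT2 2.1.0 and DESeq2 were used, and RNA was selected for poly(A), per the labels. The sources used here name no counting program, strand setting, build or annotation, and counts of overlapping or near-identical models are therefore uncertain. No value column lacked a sample.

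Gene models were chosen on CPM from column totals. A length scale was taken as the median ratio of count to FPKM per library total. Counts were fitted with edgeR 4.0.16 in R 4.3.3 (filterByExpr, TMM scaling, quasi-likelihood test, 1 coefficient per group over all 9 libraries, Benjamini-Hochberg adjustment over 22638 models). Standard errors came from the F statistic. The fit and the rule were tested on simulated data. DESeq2 1.42.0, other scalings, filters and margins, the replicate block and leaving out each library were alternatives. Replicates differed beyond counting noise (chi-square at least 34.5 times its degrees of freedom), and none was merged. Models named are the 2 with the widest gap in each direction and the 2 highest and 2 lowest for REO over day 0, and the 2 called in both contrasts were added after their values were seen. The models and rules were chosen with earlier results of these data known. The functional gene lists prepared could not be used, since 0 identifiers matched.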

Additional observations from a re-analysis of the deposited data

Results flagged for a closer look

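Soltu.DM.09G000420 and Soltu.DM.01G051480 had storage changes that were not alike with the oil and without it. The difference equals REO against control at day 40, since both share the day 0 libraries. It was 2.75 on the log2 scale for Soltu.DM.09G000420 (edgeR adjusted p = 0.0475) and 3.34 for Soltu.DM.01G051480 (edgeR adjusted p = 0.0421). The models were chosen on this difference, so it is no independent evidence. Over 15 alternatives run with edgeR or DESeq2, 10 lost the call for Soltu.DM.09G000420, where adjusted p went from 9.15e-08 to 0.220. For Soltu.DM.01G051480, 9 lost it, with adjusted p from 8.56e-08 to 0.183.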

How the results depend on the processing

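The number of models chosen depended on the scaling and the margin. The low models numbered 76 with TMM, 73 with RLE, 202 with no margin and 10 at a 1.5-fold margin, and the high models 29, 25, 636 and 3. Leaving out 1 library gave 43 to 231 low and 61 to 281 high models, with the upper ends without control day 40 replicate 2. The cause was not tested. FPKM values, a mean of at least 1 or 10 CPM and omitting the removal step kept both numbers within 1.5 times.

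For storage, 191 models in all and 24 of the 95 were called. DESeq2 called 1611 and 80, a fit of the 6 libraries alone called 0 and 0 (2892 and 90 at an unadjusted p under 0.05), and 1 library left out gave 0 to 985 and 0 to 46. For REO against control day 40, from 104 and 11, DESeq2 called 516 and 59, the 6 libraries alone 40 and 1, and 1 library left out 23 to 175 and 0 to 10. For REO against day 0, from 590 and 1, DESeq2 called 1940 and 7, the 6 libraries alone 1208 and 3, and 1 library left out 93 to 1430 and 0 to 4.

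Libraries share replicate numbers, but a pairing by number was not seen. Deviations of same-numbered libraries correlated at -0.660 to 0.547 and those of other pairs at -0.585 to 0.719. Of the 9 libraries, 4 correlated best with their own number. With 3 libraries per group these values cannot exclude a pairing. With the replicate number as a block, the edgeR test called 8 models in all and 0 of the 95 for storage. At an unadjusted p under 0.05 it had 3671 in all and 91 of the 95 for storage. It called 44 and 3 for REO against control day 40, and 300 and 0 for REO against day 0. At an unadjusted p under 0.05 it had 20 of the 95 for REO against day 0, given without the number over all models.

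In the high models, 1 library left out moved the median log2 difference of REO from day 0 between 0.079 and 0.28 and the share held back over 66.7% to 90.0%. In the low models that share was 95.7% to 109.5%. Over the 8 models named by rule and 3 contrasts, 0 fold changes reversed in 15 alternatives each. The lengths of models with day 0 or REO apart, without day 0 replicate 3 or control day 40 replicate 2, were added after seeing the data. They use the models at 5 CPM over all 9 libraries, which left out 0 to 13 of each set.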
